A study of Mus musculus with 12 samples.

Results

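Retinal ganglion cells are the output neurons of the retina, and 10 genes that mark them were followed through the adult, photoreceptor-specific deletion of Otx2. The 10 genes, of 54146 counted, were Pou4f1, Pou4f2, Rbpms, Slc17a6, Sncg, Thy1, Nefl, Nefm, Nefh and Opn4, taken from a list of named genes and found by their Ensembl identifiers. All 10 were among the 18628 genes that passed the filter on low counts. RNA-seq was performed on the retina of 1 eye from each of 12 mice, in 4 conditions of 3 mice on a 129/SV background. The cKO animals were Crx-CreERT2;Otx2 flox/flox mice given a single intraperitoneal dose of tamoxifen at P30, and were killed 2, 4 or 8 d later, at P32, P34 and P38. The Crx promoter drives the tamoxifen-activated recombinase CreERT2 in photoreceptors and not in ganglion cells, and the deletion removes 1 coding exon of Otx2, so the genes described here belong to cells in which Otx2 was not the target. The comparison group was killed at 0 d (P30) and is labelled only as control, with no genotype or injection given in the label. The paper places this group at the moment of injection. Age, tamoxifen and deletion therefore changed together between P30 and the later groups and cannot be told apart. Sex was not balanced either, since by their counts all P30 mice were female and each later group held both sexes. Each mouse is named here by its number in the labels, 1 to 3 for P30 controls, 4 to 6 for P32 cKO, 7 to 9 for P34 cKO and 10 to 12 for P38 cKO.

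Ganglion cells lie in the innermost cell layer, collect signals from bipolar and amacrine cells, release glutamate, and send their axons through the optic nerve to the brain. They make up a small minority of retinal cells, so in a bulk extract their transcripts are diluted by those of rods. Their identity rests on homeodomain factors of the POU4F family, their long axons on a neurofilament skeleton, and a small subset carries the photopigment melanopsin and senses light directly. As background, some of these genes are shared with other cells: Thy1 and Nefl are not exclusive to ganglion cells in the retina, and neurofilament genes are also used by horizontal cells.

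The stretch just before the annotated start of transcription is shown for 2 POU4F factors, the glutamate transporter gene and the photopigment gene, because these genes are largely restricted to ganglion cells in the retina. RefSeq windows on GRCm38.p6 were at hand for 5 of the 10 genes, 6 windows in all. Each line gives the 250 bases before the start, 5′ to 3′ on the strand of the gene, with capitals marking GGGCGG, a GC box, on either strand.
Pou4f1, chr14:104468000-104468249, minus strand: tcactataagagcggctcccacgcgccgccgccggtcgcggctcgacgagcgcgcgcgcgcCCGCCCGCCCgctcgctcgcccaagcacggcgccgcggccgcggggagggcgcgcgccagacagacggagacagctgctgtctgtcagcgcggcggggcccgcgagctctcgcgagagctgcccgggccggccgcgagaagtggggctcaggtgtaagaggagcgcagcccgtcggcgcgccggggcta
Pou4f2, chr8:78436648-78436897, minus strand: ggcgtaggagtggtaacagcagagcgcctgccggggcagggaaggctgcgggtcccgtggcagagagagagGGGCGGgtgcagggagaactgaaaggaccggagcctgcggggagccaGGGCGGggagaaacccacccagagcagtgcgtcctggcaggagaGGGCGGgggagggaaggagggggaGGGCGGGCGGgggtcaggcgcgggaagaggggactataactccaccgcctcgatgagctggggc
Slc17a6, chr7:51621580-51621829, plus strand: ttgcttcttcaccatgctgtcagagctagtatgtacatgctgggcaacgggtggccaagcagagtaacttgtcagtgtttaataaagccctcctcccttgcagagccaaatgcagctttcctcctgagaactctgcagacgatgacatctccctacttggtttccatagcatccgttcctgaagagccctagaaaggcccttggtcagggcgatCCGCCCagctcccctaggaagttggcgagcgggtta
Opn4, chr14:34600143-34600392, minus strand: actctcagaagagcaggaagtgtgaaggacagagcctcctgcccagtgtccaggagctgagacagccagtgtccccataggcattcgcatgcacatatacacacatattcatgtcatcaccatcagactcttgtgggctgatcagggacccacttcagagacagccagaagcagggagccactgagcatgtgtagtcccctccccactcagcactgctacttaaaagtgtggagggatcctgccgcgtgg
GGGCGG was found 2 times before Pou4f1, 5 times before Pou4f2 and 1 time before this Slc17a6 start, while the Opn4 window held none. Of 32851 windows of the same length over all genes, 32.7% held it. TAATCC, the core letters bound by OTX and CRX proteins, was in none of the 6 windows and in 6.25% of all windows. TAATTA, a homeodomain core, was in 1 of the 6 windows, the second Slc17a6 window (not shown), 81 bases before its start, and in 4.84% of all windows. The search covered both strands, overlapping matches such as the pair before Pou4f1 were each counted, and no matches of different motifs overlapped in the windows shown. These matches are letters in a window and describe no binding. GC content was 78% before Pou4f1, 70.8% before Pou4f2, 53.2% before Slc17a6 and 54.8% before Opn4.

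Depth and library make-up were as follows. Counts on genes ranged from 29701483 to 60145034 per library. Otx2 itself stood between 293 and 377 CPM (read counts scaled to a common library size with the TMM method) in all 12 libraries, and since the gene count includes exons outside the deleted part it does not check the deletion. Other eye tissues varied among libraries: 6 lens genes summed to 449 to 33500 CPM at P30, 637 to 37600 at P32, 238 to 658 at P34 and 4620 to 11800 at P38, and 7 ciliary body and iris genes summed to 121 to 193 CPM at P30, 86.6 to 124 at P32, 50.3 to 58.2 at P34 and 80.2 to 90.2 at P38. Mouse 4, a P32 cKO animal, stood farthest from the others on the first principal component of all genes, which held 33.7% of the variance. By counts of Xist and Y-linked genes, the P30 mice comprised 0 males, the P32 mice 1 male and 2 females, and the P34 and P38 mice 2 males and 1 female each. In whole retina, fewer cells of a type and less RNA per cell cannot be told apart.

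The level of the 10 genes was compared per length, as mean RPKM over the 12 libraries. Nefl, the light neurofilament subunit that forms the core of the axonal filament, was highest at 165 RPKM, and Sncg, which encodes gamma-synuclein, was next at 158 RPKM. Thy1, a glycolipid-anchored surface protein long used to purify ganglion cells, stood at 64.8 RPKM. Nefh at 34.3 RPKM and Nefm at 33 RPKM, the heavy and medium subunits, were followed by Slc17a6, the vesicular glutamate transporter VGLUT2, at 18.6 RPKM. The transcription factor Pou4f1 (BRN3A) was at 7.07 RPKM and the RNA-binding protein Rbpms, a marker of nearly all ganglion cells, at 6.46 RPKM. Pou4f2 (BRN3B) at 4.43 RPKM and Opn4 (melanopsin) at 2.11 RPKM were the lowest, and Opn4 rested on only 166 to 357 counts per library against 14692 to 31111 for Nefl. Among neighbours in this order, the P30 ranges overlapped for Nefl and Sncg, for Nefh and Nefm, and for Pou4f1 and Rbpms, while each of the other neighbours kept its order in 12 of 12 libraries. Measured against all 18628 tested genes, the list ran from percentile 40.7 (Opn4) to percentile 99.3 (Nefl and Sncg).

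The POU4F factors, which direct ganglion cell identity and survival, had their highest values at P34. Pou4f1 (chr14:104461676-104467999, minus strand, GRCm38) was at 28.8, 21 and 32.1 CPM in the P30 mice, 28.6, 26.4 and 31.1 in the P32 mice, 48.3, 32.3 and 43.9 in the P34 mice, and 36.6, 37.7 and 29.8 CPM in the P38 mice. All P34 mice were above all P30 and P32 mice, although mouse 8 exceeded the highest control by a small margin. Pou4f2 (chr8:78433010-78436645, minus strand) was at 11.5, 9.95 and 14.5 CPM in the P30 mice, 10.3, 9.54 and 13.5 in the P32 mice, 22, 12.4 and 18.9 in the P34 mice, and 17.3, 16.5 and 14 CPM in the P38 mice. Here mouse 8 fell within the control range, so the groups overlapped. Against P30, the P34 difference in log2 CPM was 0.60 ± 0.18 (SE) for Pou4f1, a 1.52-fold level (unadjusted p = 0.00548, adjusted p = 0.242), and 0.57 ± 0.22 for Pou4f2, a 1.48-fold level (unadjusted p = 0.023, adjusted p = 0.393). Neither passed the adjusted threshold in the edgeR fit used here. The ratio of Pou4f1 to Pou4f2 per length stayed between 1.45 and 1.91 in the 12 libraries.

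Rbpms and the transmitter gene gave values of the same kind. Rbpms (chr8:33782643-33929863, minus strand) was at 36.5, 33.9 and 42.8 CPM in the P30 mice, 37.9, 35 and 37.9 in the P32 mice, 61.8, 42.3 and 48.5 in the P34 mice, and 47.4, 42.6 and 41.4 CPM in the P38 mice. Mouse 7 was the highest of the 12, and of the P34 mice only mouse 8 lay within the control range. Slc17a6 (chr7:51622006-51671119, plus strand) was at 83.1, 70.1 and 103 CPM in the P30 mice, 70.6, 71.3 and 95.7 in the P32 mice, 146, 108 and 120 in the P34 mice, and 126, 109 and 103 CPM in the P38 mice. All P34 values lay above all P30 and P32 values, and the P38 values lay above all P32 values. At P34 against P30 the log2 difference was 0.43 ± 0.14 for Rbpms (adjusted p = 0.292) and 0.55 ± 0.17 for Slc17a6 (adjusted p = 0.273), and at P38 it was 0.22 ± 0.14 and 0.40 ± 0.17 (adjusted p = 0.847 for both). Slc17a6 had the smallest p of the 10 for any difference among the 4 conditions (unadjusted p = 0.00617, adjusted p = 0.19).

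Sncg behaved apart from the other genes. It was at 129, 101 and 124 CPM in the P30 mice, 180, 114 and 125 in the P32 mice, 182, 124 and 133 in the P34 mice, and 160, 122 and 126 CPM in the P38 mice. The highest values were those of 3 single mice, numbers 4, 7 and 10, and all groups overlapped. Its P34 difference from P30 was 0.31 ± 0.19 in log2 (unadjusted p = 0.132, adjusted p = 0.602), and its p for any difference among conditions was 0.447 before adjustment. Sncg (chr14:34370274-34374789, minus strand) has the shortest exonic length of the list, 852 bases, and in the P32 mice genes under 1.5 kb had a median log2 difference of 0.17 from P30 against −0.12 for genes over 5 kb. The part of transcript length in the Sncg value of mouse 4 was not tested. Thy1 (chr9:44043384-44048579, plus strand) was at 177, 149 and 184 CPM in the P30 mice, 188, 177 and 184 in the P32 mice, 273, 182 and 222 in the P34 mice, and 205, 189 and 198 CPM in the P38 mice. The 3 P38 mice were all above the controls but by little, a log2 difference of 0.22 ± 0.13 (adjusted p = 0.847), and at P34, where mouse 8 lay among the controls, it was 0.41 ± 0.13 (adjusted p = 0.304).

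The neurofilament subunits, which assemble together and set axon calibre, varied in parallel. Nefl (chr14:68083863-68089095, plus strand) was at 467, 389 and 581 CPM in the P30 mice, 441, 406 and 499 in the P32 mice, 748, 532 and 696 in the P34 mice, and 755, 568 and 602 CPM in the P38 mice. The P34 and P38 groups each had 1 mouse within the control range, and all their values lay above those of P32. Nefm (chr14:68082590-68124846, minus strand) was at 163, 134 and 208 CPM in the P30 mice, 129, 155 and 184 in the P32 mice, 273, 195 and 248 in the P34 mice, and 208, 202 and 192 CPM in the P38 mice. Nefh (chr11:4938754-4948064, minus strand) was at 120, 104 and 136 CPM in the P30 mice, 104, 122 and 134 in the P32 mice, 189, 137 and 165 in the P34 mice, and 163, 137 and 134 CPM in the P38 mice. For Nefh the 3 P34 mice were above the 3 controls, the nearest pair being 137 and 136 CPM. At P34 against P30 the log2 differences were 0.46 ± 0.18 for Nefl, 0.50 ± 0.18 for Nefm and 0.45 ± 0.15 for Nefh (adjusted p = 0.403, 0.339 and 0.3). Nefl and Nefm overlap on opposite strands over 32.8% of the exonic bases of Nefl and 19.2% of those of Nefm, and since the strand setting of the counting is not given in the sources used here, reads there may be assigned to either gene or set aside. The ratio of Nefm to Nefh per length stayed between 0.855 and 1.06 in all libraries, and that of Nefl to Nefm between 4.49 and 6.2.

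Opn4 followed a different course over the ages. It was at 5.63, 5.37 and 6.15 CPM in the P30 mice, 4.98, 4.88 and 4.83 in the P32 mice, 8.03, 5.32 and 6.4 in the P34 mice, and 8.15, 7.76 and 7.64 CPM in the P38 mice. All P32 mice were below all controls and all P38 mice were above them, while the P34 mice were spread on both sides. Against P30 the log2 difference was −0.22 ± 0.16 at P32 (adjusted p = 0.698), 0.20 ± 0.16 at P34 (adjusted p = 0.688) and 0.46 ± 0.16 at P38 (unadjusted p = 0.0132, adjusted p = 0.847). P38 against P32 gave 0.68 ± 0.16, a 1.6-fold level (unadjusted p = 0.00108, adjusted p = 0.114). This was the smallest p of the 10 genes in any of the 7 comparisons and did not pass after adjustment. Opn4 (chr14:34590618-34600142, minus strand) shares 4.39% of its exonic bases with Gm49012 on the opposite strand.

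**Figure D1:**
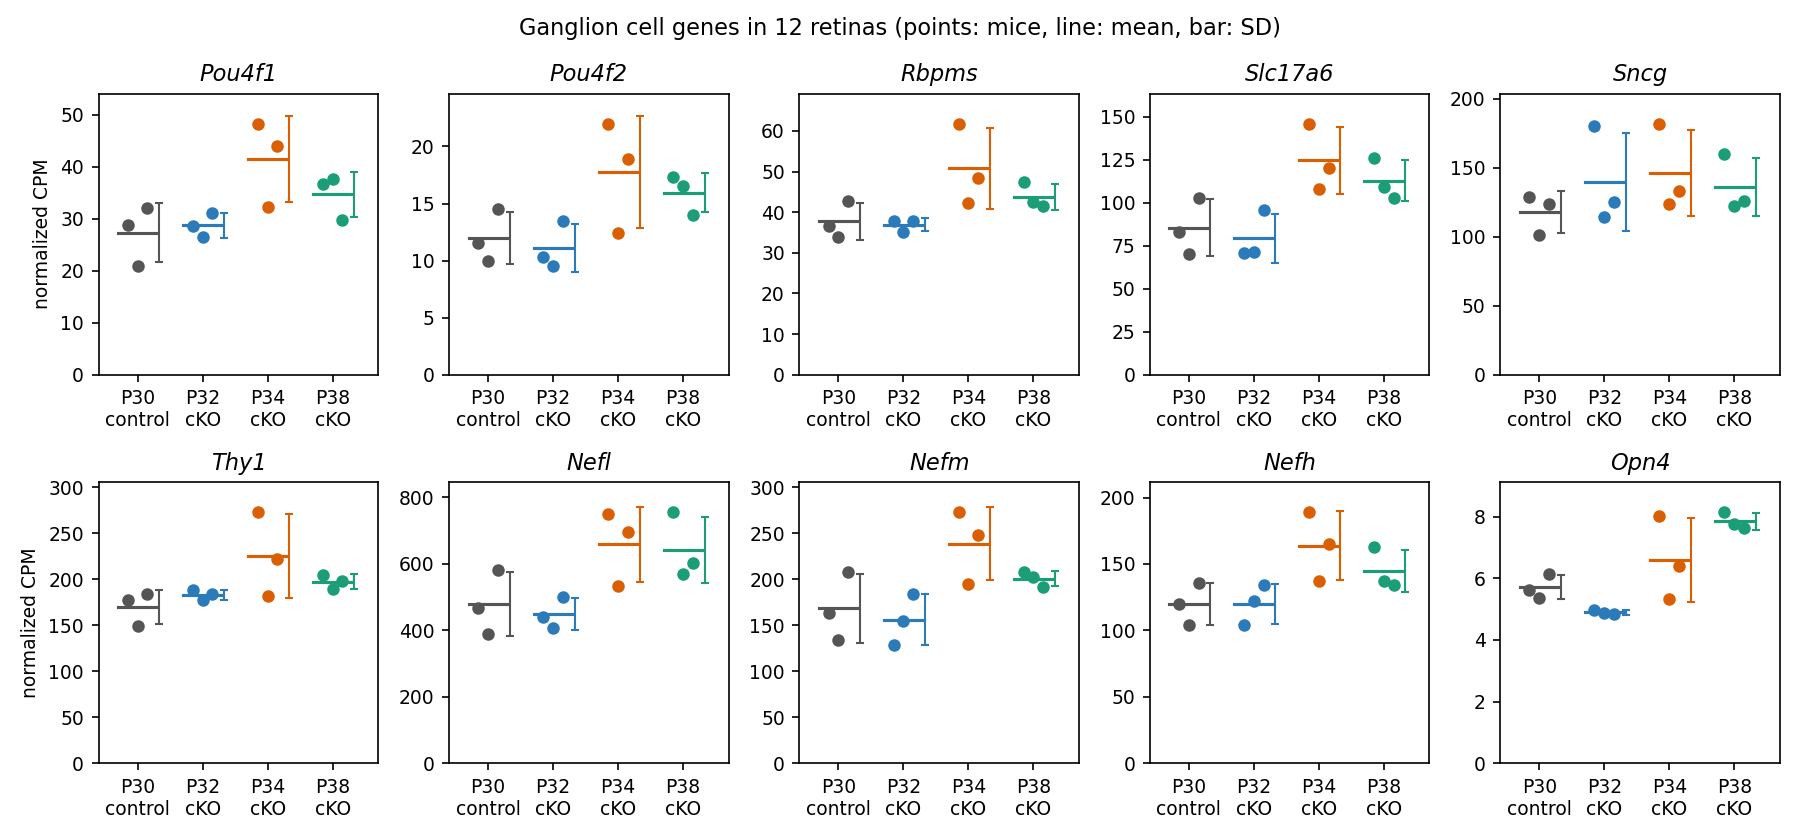
Normalized CPM of the 10 ganglion cell genes (vertical axes from 0) in each of 12 mice, by condition, with the mean as a line and the SD of 3 mice as a bar. Mouse 7, the leftmost P34 point, is the highest of the 12 for 8 genes, and Opn4 reads 7.64 to 8.15 CPM at P38 against 4.83 to 4.98 CPM at P32.

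The first question was whether ganglion cell genes differed from P30 controls at any age after deletion. No gene of the 10 was called at P32, P34 or P38 (edgeR quasi-likelihood test, with the call set at an adjusted p up to 0.05 together with a log2 difference of 0.5 or more in size). The study's own table, made with DESeq2, lists Pou4f1 as higher at P34, so the absence of calls holds only for the fits made here. Of all tested genes 0% were called at P32 and 0% at P38, and 0.66% at P34, all 123 of them lower. With all cKO ages set against P30, none of the 10 passed while 0.36% of all genes did. That share moved with single controls, the lower calls over all genes running from 0 without mouse 2 to 108 without mouse 1. At P32 the 10 genes gave log2 differences between −0.22 and 0.25, with 4 of 10 positive and a median of −0.06, against −0.01 over all genes. None of the 10 reached an unadjusted p of at most 0.05 at that age, against 5.64% of all genes in either direction, and 1 (Opn4) lay wholly below the controls, against 4.39% of all genes. The direction at P32 depended on single controls, with 9 of 10 positive and a median of 0.07 without mouse 3 and 2 of 10 positive and a median of −0.16 without mouse 2. At P34 all 10 were positive, from 0.20 (Opn4) to 0.60 (Pou4f1), with a median of 0.45 against 0 over all genes, whose middle range ran from −0.2 to 0.15. An unadjusted p of at most 0.05 with a higher level was reached by 8 of the 10 (all but Sncg and Opn4), against 3.4% of all tested genes. With the limit of 0.5 on the log2 difference as well, 4 of the 10 met that p (Pou4f1, Pou4f2, Slc17a6 and Nefm), against 0.854% of all genes. The P34 mice lay wholly above the P30 mice for 3 of the 10 (Pou4f1, Slc17a6 and Nefh), against 10.4% of all genes. At P38 all 10 were again positive, from 0.21 (Sncg) to 0.46 (Opn4), with a median of 0.31 against −0.01. Of these, 3 had an unadjusted p of at most 0.05 (Slc17a6, Nefl and Opn4), against 1.82% of all genes higher, and 2 lay wholly above the controls (Thy1 and Opn4), against 8.23%. The 3 comparisons share the P30 mice, so they are not separate evidence of direction.

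The P34 values rested in part on mouse 7. Without it the median log2 difference of the 10 genes from P30 was 0.34 and 2 of the 10 (Pou4f1 and Slc17a6) kept an unadjusted p of at most 0.05, against 1.14% of all genes. Without mouse 2, the control with the lowest levels of 7 genes, the median was 0.36 and the count was 4, against 1.15% of all genes. All 10 stayed positive at P34 under each of 20 alternatives, with medians from 0.34 to 0.58. At P38 the count with an unadjusted p of at most 0.05 moved between 1 and 7, the low value arising without mouse 1, 2 or 10 and with sex as a term, and the high one without mouse 3. The share of all genes higher at that p was 0.719%, 0.841%, 1.62% and 4.38% in those 4 settings and 3.23% without mouse 3. The P38 median moved between 0.18 without mouse 2 and 0.45 without mouse 3. The sex term left the P34 median at 0.47 with 7 of 10 genes under that p, against 5.25% of all genes. No P30 mouse was male, so that term rested on the cKO mice alone.

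**Figure D2:**
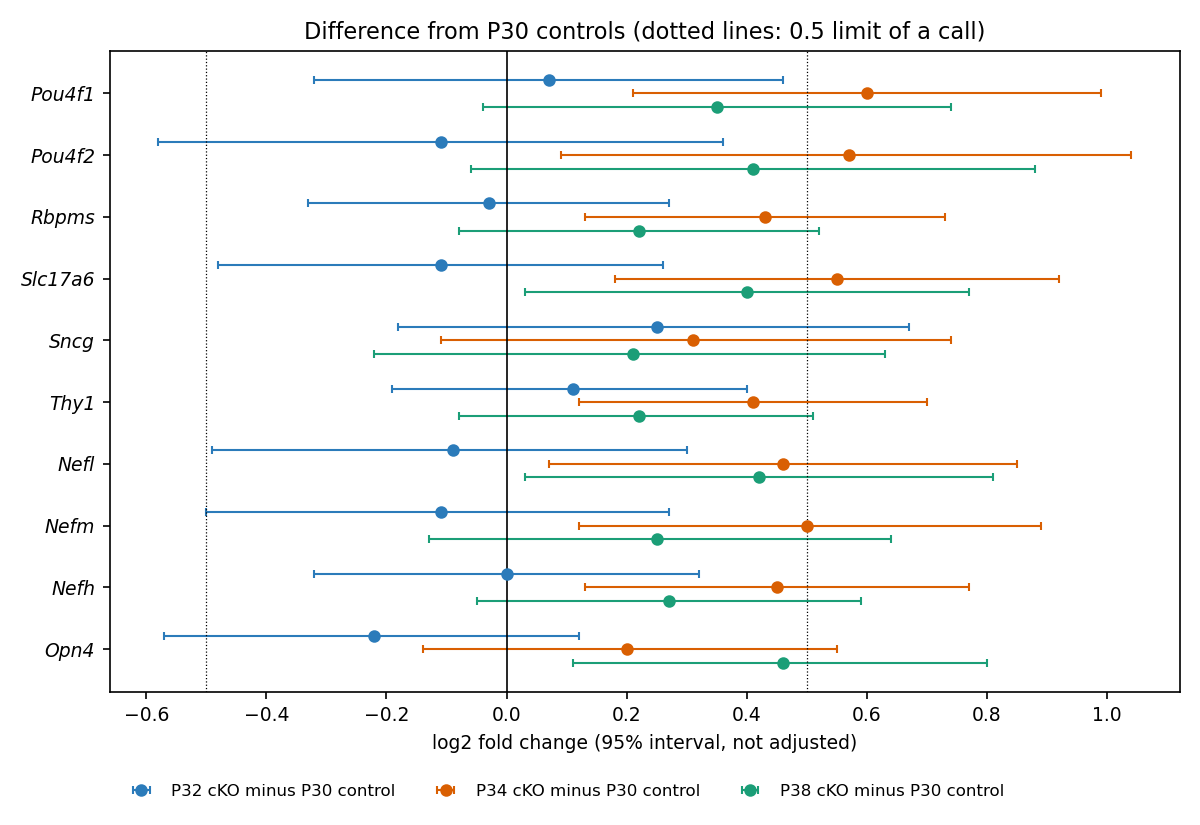
Log2 fold change of each ganglion cell gene at P32, P34 and P38 against the P30 controls (horizontal axis), with the unadjusted 95% interval from the fit over 12 mice. The P32 values scatter around 0, the P34 values run from 0.20 to 0.60, and the dotted lines mark a difference of 0.5 in either direction.

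The next question was how the 10 genes differed between the cKO ages, a contrast that leaves out the P30 controls. At P34 against P32 all 10 log2 differences were positive (Sncg, the lowest, was at −0.12 to −0.01 without scaling of library totals, with sex as a term, or without mouse 5, 6 or 7), from 0.07 (Sncg) to 0.68 (Pou4f2), with a median of 0.50 against −0.02 over all genes. Transcript length moved with this contrast, the median over all tested genes being −0.25 for those under 1.5 kb of exon and 0.15 for those over 5 kb. Sncg is the only one of the 10 in the shortest class, and Rbpms, Slc17a6 and Nefm are in the longest. Set against the median of its own length class, a description added after the values were seen, each of the 10 was higher by 0.31 (Rbpms) to 0.72 (Pou4f2), with Sncg at 0.32. No gene was called, while 0.242% of all genes were, 45 genes and all lower at P34. An unadjusted p of at most 0.05 with a higher level at P34 was reached by 9 of 10 (all but Sncg), with 13.5% of all genes in that state, and 7 of 10 did not overlap, with 14.8% of all genes wholly above. With the limit of 0.5 as well, 5 of 10 met that p, with 5.49% of all genes. The adjusted p of those 9 genes lay between 0.0948 (Slc17a6) and 0.176 (Thy1). The calls here differed without 1 library and under other settings. Without mouse 6, a P32 animal, 5 genes passed (Pou4f2, Slc17a6, Nefl, Nefm and Nefh), beside 7.43% of all tested genes called higher. With DESeq2, which was run without the same filter on low counts, 5 passed (Pou4f1, Pou4f2, Slc17a6, Nefl and Nefm), beside 3.47% called higher. With no filter on low counts 2 passed (Slc17a6 and Nefm), beside 0.68% called higher. Without mouse 7 the median was 0.37 and 4 of 10 had an unadjusted p of at most 0.05, with 10.8% of all genes higher at that p.

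At P38 against P34 the differences ran from −0.26 (Pou4f1) to 0.25 (Opn4), with a median of −0.17. None had an unadjusted p of at most 0.05, against 5.08% of all genes in either direction, and none was called, against 0.199%. Without mouse 7 the median was −0.02 with 4 of 10 positive and 1 higher at that p (2.7% of all genes), and without mouse 8 it was −0.31 with 3 lower at that p (2.04% of all genes). With all mice, Opn4 was the only one of the 10 with a higher mean at P38. At P38 against P32 the median was 0.32, and 4 of 10 had a higher level with an unadjusted p of at most 0.05 (Pou4f2 at 0.52, Slc17a6 at 0.51, Nefl at 0.52 and Opn4 at 0.68), against 12.3% of all genes. Genes under 1.5 kb had a median of −0.27 and those over 5 kb one of 0.16, and against their own length class the 10 genes were at 0.08 (Rbpms) to 0.88 (Opn4), with a median of 0.33. The same 4 also met the limit of 0.5, against 5.68% of all genes. The count without that limit was 2 without mouse 5 (10.1% of all genes) or without mouse 10 (11.1%) and 6 without mouse 6 (17.7%). Here 7 of 10 lay wholly above P32, against 13.3% of all genes, no gene of the 10 was called and 0% of all genes were. Without mouse 6, Slc17a6 and Opn4 passed beside 6.52% called higher, and with DESeq2 Opn4 alone did beside 3.05%. For any difference among the 4 conditions, none of the 10 was called against 0.344% of all genes, and 8 of 10 had an unadjusted p of at most 0.05 (all but Sncg and Thy1) against 17.2%. With DESeq2, 3 of the 10 passed (Slc17a6, Nefl and Opn4), beside 7.05% of all genes.

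The 10 genes varied together from mouse to mouse. Over the 12 libraries, the median Pearson correlation of log2 CPM between 2 of them was 0.88 (45 pairs, from 0.31 to 0.96), and without Sncg and Opn4 it was 0.92 (28 pairs, from 0.80 to 0.96). After each condition's mean was taken out the median was 0.81, so the covariation was also present among mice of the same group. Pairs with Sncg had a median of 0.47 and pairs with Opn4 one of 0.69. With the condition means taken out, these medians were 0.55 for Sncg and 0.73 for Opn4 (from 0.65 to 0.95). All genes of a library share its depth, dissection and scaling factor, and these correlations are given as a description. Mouse 7 had the highest value for 8 genes and mouse 10 for the other 2 (Nefl and Opn4), while mouse 2 had the lowest value for 7. Summed over the 10 genes, the P30 mice held 1020 to 1430 CPM, the P32 mice 1120 to 1310 CPM, the P34 mice 1370 to 1950 CPM and the P38 mice 1430 to 1730 CPM.

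**Figure D3:**
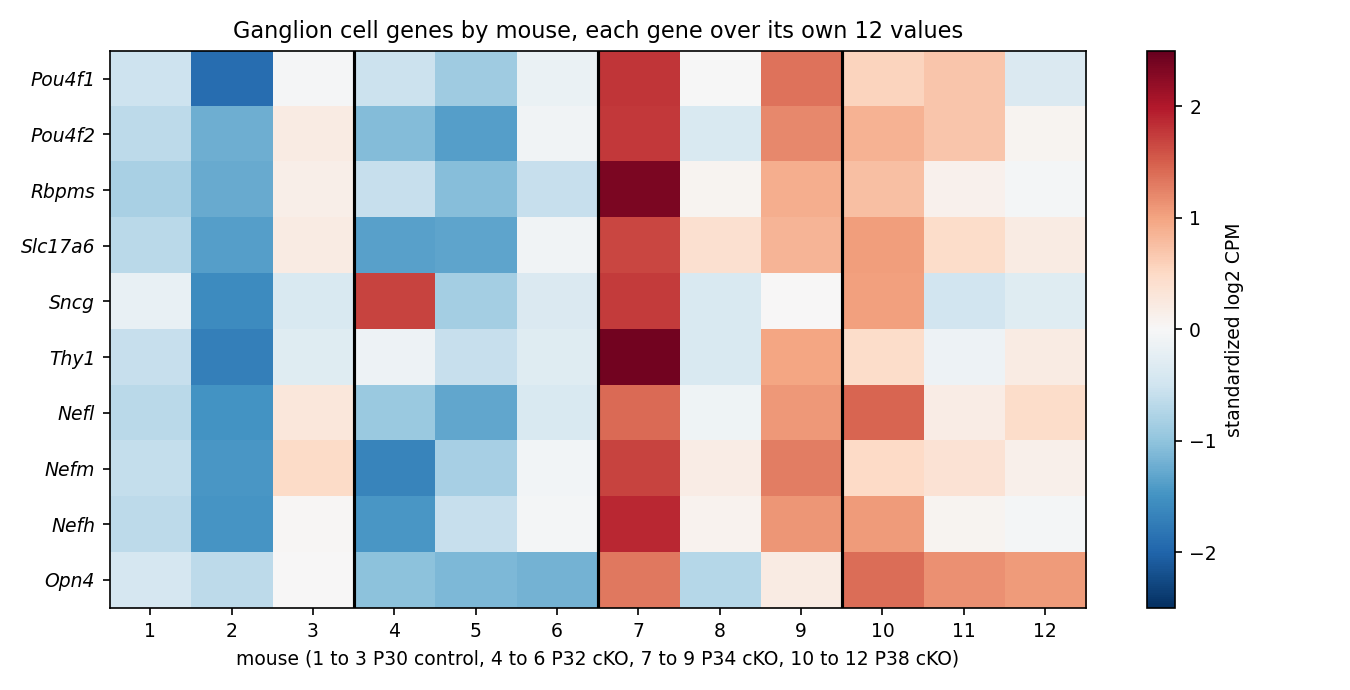
Log2 CPM of the 10 ganglion cell genes (rows) in 12 mice (columns), each row centred on its own mean and divided by its own SD, red for high and blue for low. Mouse 7 is high and mouse 2 low in most rows, and the rows of Sncg (second highest in mouse 4) and Opn4 (lowest in mouse 6) depart from the others.

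The shared profile, taken as the mean standardized log2 CPM of the 10 genes, also moved with measures of the libraries. Its correlation over the 12 libraries was −0.79 with the TMM scaling factor, −0.62 with the percentage of reads outside annotated features, −0.25 with the count total, −0.53 with the ciliary body and iris genes and −0.32 with the lens genes. Among retinal cell classes it was 0.80 with horizontal cell genes, 0.67 with rod and cone genes, 0.44 with amacrine genes and −0.38 with bipolar genes. Without any scaling of library totals the P34 median of the 10 genes was 0.40 against −0.06 over all genes, with 8 of 10 at an unadjusted p of at most 0.05, against 1.74% of all genes. The part of the other measures in the ganglion cell values was not tested. The 5 genes outside the list whose profile was most like it were Nrn1 (r = 0.972), a membrane-anchored protein that promotes neurite growth, Cplx1 (0.967), a regulator of synaptic vesicle release, Vsnl1 (0.965), a calcium sensor, Irx4 (0.962), a homeodomain factor, and Calm3 (0.961), which encodes calmodulin. By rank correlation, 1 of these 5 (Vsnl1) remained among the top 5.

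Ratios within a library, which do not depend on library scaling, separated Opn4 from the pan-ganglion-cell gene Rbpms. The ratio of Opn4 to Rbpms per length was 0.337 ± 0.0164 (SD, n = 3) at P30, 0.294 ± 0.0137 at P32, 0.286 ± 0.00666 at P34 and 0.398 ± 0.0149 at P38. The 3 P38 ratios, 0.381 to 0.409, lay above the other 9, which ran from 0.279 to 0.351. The P32 and P34 ratios lay below the P30 range of 0.319 to 0.351, with P32 and P34 overlapping. Slc17a6 to Rbpms was 2.73 ± 0.207 at P30, 2.6 ± 0.42 at P32, 3 ± 0.111 at P34 and 3.12 ± 0.105 at P38, where the range of 3.02 to 3.23 lay above that of P30, 2.51 to 2.92. Thy1 to Rbpms was 9.88 ± 0.637, 10.8 ± 0.208, 9.7 ± 0.295 and 9.89 ± 0.539 in the same order. The factor ratios overlapped between P30 and each later age, with Pou4f1 to Rbpms between 0.871 and 1.27 and Pou4f2 to Rbpms between 0.555 and 0.797 over all libraries. For Sncg the ratio was 24.1 ± 2.61 at P30 and 29 ± 6.52 at P32, where mouse 4 stood at 36.5, and its coefficient of variation over 12 libraries, 16.6%, was above the 14.5% of the Opn4 ratio. With 3 mice per group these ratios were not tested.

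**Figure D4:**
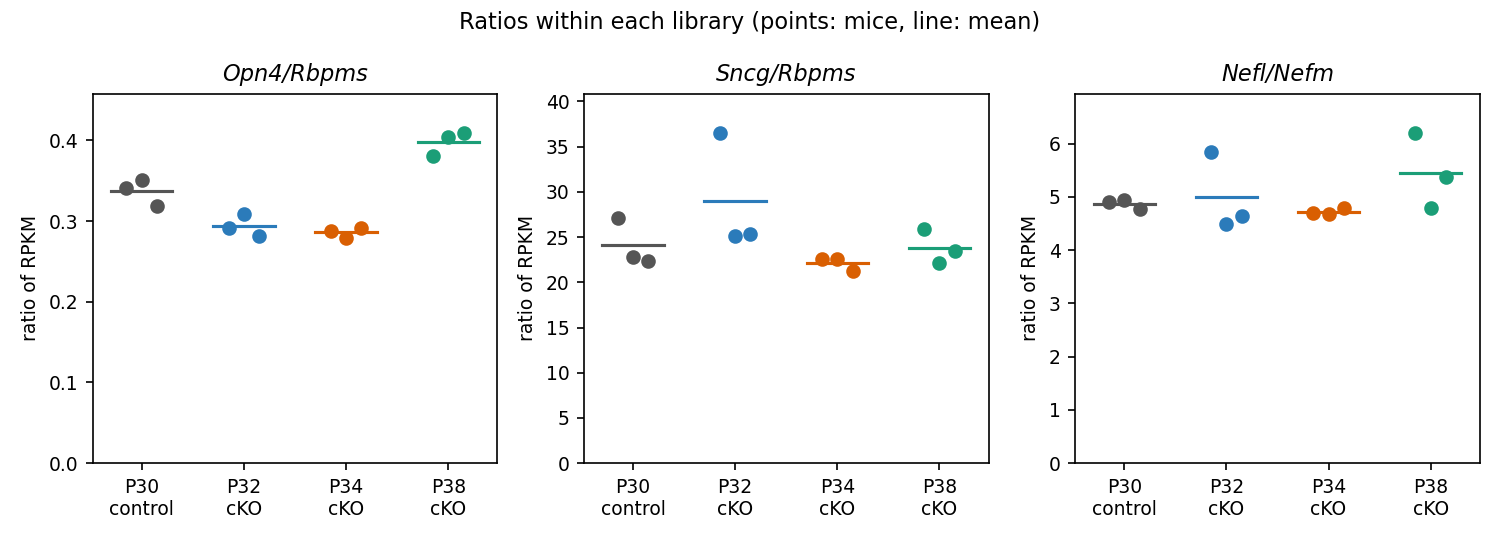
Ratios of RPKM within each library for Opn4 to Rbpms, Sncg to Rbpms and Nefl to Nefm (vertical axes from 0), with 1 point per mouse and the mean of 3 mice as a line. Opn4 to Rbpms reads 0.381 to 0.409 at P38 and at most 0.351 in the other 9 mice.

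Other ganglion cell genes were counted from lists of known markers, with 52 genes in 4 lists. These lists were drawn up with earlier results of these samples known, some of their genes among them, so their counts are no independent evidence of direction. Of 13 transcription factors of ganglion cells and their subtypes, 11 were positive at P34 against P30 with a median log2 difference of 0.33, 7 had an unadjusted p of at most 0.05 with a higher level, and none was called. Over all genes 3.4% were higher and 7.06% lower at that p, the shares beside which the higher and lower counts of the other lists at P34 are also read. Ebf1, an HLH factor, stood at 38.6 CPM against 27.3 CPM (log2 difference 0.50 ± 0.13, adjusted p = 0.175) and Eomes, which marks the melanopsin lineage, at 12.3 CPM against 9.53 CPM (0.36 ± 0.16, adjusted p = 0.459). Isl1, shared with bipolar and amacrine cells, was at 91.1 and 94.8 CPM, a difference of −0.06 ± 0.12, and Ebf3 at 49.5 and 41.1 CPM, 0.27 ± 0.12. Of 13 axon and cytoskeleton genes all were positive, with a median of 0.31, 8 at an unadjusted p of at most 0.05 and none called in the edgeR fit. The study's own DESeq2 table lists Map1a, Kif5a and L1cam as higher at P34. Map1a, a microtubule-binding protein of mature neurons, was at 293 CPM against 183 CPM (0.68 ± 0.24, adjusted p = 0.354) and its relative Map1b at 1020 CPM against 748 CPM (0.45 ± 0.23, adjusted p = 0.541). Uchl1, an abundant neuronal ubiquitin hydrolase, read 182 and 181 CPM, and the tubulin-binding Stmn3 read 145 and 129 CPM. Over all genes the median difference at P34 was −0.07 under 1.5 kb of exon and 0.05 over 5 kb. The part of transcript length in these values was not tested.

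Subtype and signaling genes were divided. Of 16, 11 were positive at P34, the median was 0.08, 6 were higher and 1 lower at an unadjusted p of at most 0.05, and none was called in the edgeR fit. The study's own DESeq2 table lists Tusc5 as higher at P34. Tusc5 (Trarg1 in the annotation) had the smallest p, at 62.1 CPM against 38 CPM (0.71 ± 0.18, adjusted p = 0.159), and the sodium channel Scn1a was at 119 CPM against 84.2 CPM (0.50 ± 0.22, adjusted p = 0.459). Chrna6, a nicotinic receptor subunit, was at 207 CPM against 155 CPM (0.41 ± 0.14), and the neuropeptide gene Cartpt, a marker of direction-selective ganglion cells, at 81.6 CPM against 72.9 CPM (0.16 ± 0.28). The lower one was Ntrk2, the BDNF receptor TrkB, which is also made by glia, at 80.5 CPM against 103 CPM (−0.35 ± 0.12, adjusted p = 0.321), named here after its value was seen.

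Genes that ganglion cells are known to induce after axon injury had medians near 0 at P34 and P38 and one of 0.20 at P32 that rested in part on mouse 4. Of 10 listed, 9 were tested and 4 were positive at P34, with a median of −0.02 and 0 at an unadjusted p of at most 0.05. Ddit3, a stress-response factor, was at 42.4 CPM at P34 and 42.9 CPM at P30, and Gadd45a, a growth-arrest gene, at 17.9 and 18.7 CPM. The pro-apoptotic Bbc3 was low, at 1.54 and 1.58 CPM. At P38 the injury list had a median of 0.04, again with 0 at that p (5.64% of all genes in either direction). The summed level was 96.9 to 103 CPM in the P30 mice, 88.7 to 109 CPM at P34 and 96.4 to 117 CPM in the P38 mice. At P32 the sum was 149 CPM in mouse 4 and 110 and 106 CPM in mice 5 and 6, above the P30 range, and the median was 0.20 with 5 of 9 positive and none called. Over all genes the P32 median was 0.17 under 1.5 kb of exon, 0.12 from 1.5 to 3 kb and −0.12 over 5 kb. The part of transcript length in the injury list was not tested. Without mouse 4, a setting chosen after seeing the data, the median was 0.10 with 5 of 9 positive, none of them at an unadjusted p of at most 0.05 (0.853% of all genes higher). Tnfrsf12a was lower at that p (−0.80 ± 0.26), beside 1.73% of all genes, and Gadd45a was at 0.28 ± 0.15 (edgeR, unadjusted p = 0.0898). Gadd45a was at 26.4 CPM at P32 (0.50 ± 0.18, unadjusted p = 0.0162, adjusted p = 0.698), with all mice above the controls, as for 5.26% of all genes. It was the 1 gene of this list at an unadjusted p of at most 0.05, beside 2.55% of all genes higher at that p. Ddit3 was at 53.6 CPM (0.32 ± 0.17), with mouse 4 at 68.6 CPM and mice 5 and 6 at 49.2 and 43.1 CPM, below the highest control at 50.1 CPM, and Bbc3 at 2.52 CPM (0.68 ± 0.33), both with adjusted p = 0.698.

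Markers of other cell classes were counted in the same way at P34 against P30. The median was 0.34 for 6 horizontal cell genes (1 higher with an unadjusted p of at most 0.05), 0.23 for 10 amacrine genes (0), 0.13 for 8 rod and cone genes (0), 0.07 for 5 Müller glia genes (1 lower) and −0.04 for 7 bipolar genes (0). Over 6 tested astrocyte and optic nerve glia genes it was −0.03 (0), and over 5 microglia genes 0.24 (0). None of these lists held a called gene. The lower calls among the lists lay in RPE genes (2 of 6) and in ciliary body and iris genes (4 of 7), with medians of −1.54 and −1.36. All 6 lens genes were lower at an unadjusted p of at most 0.05, with a median of −4.97 and none called, and 5 skeletal muscle genes had a median of 0.77 with 0 at that p. The part of these tissues, whose RNA shares the library with that of the retina, in the ganglion cell values was not tested. Astrocyte and optic nerve glia genes summed to 71.9 to 101 CPM in the P30 mice and 74.2 to 97.2 CPM in the P34 mice, and horizontal cell genes to 493 to 544 and 527 to 643 CPM.

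**Figure D5:**
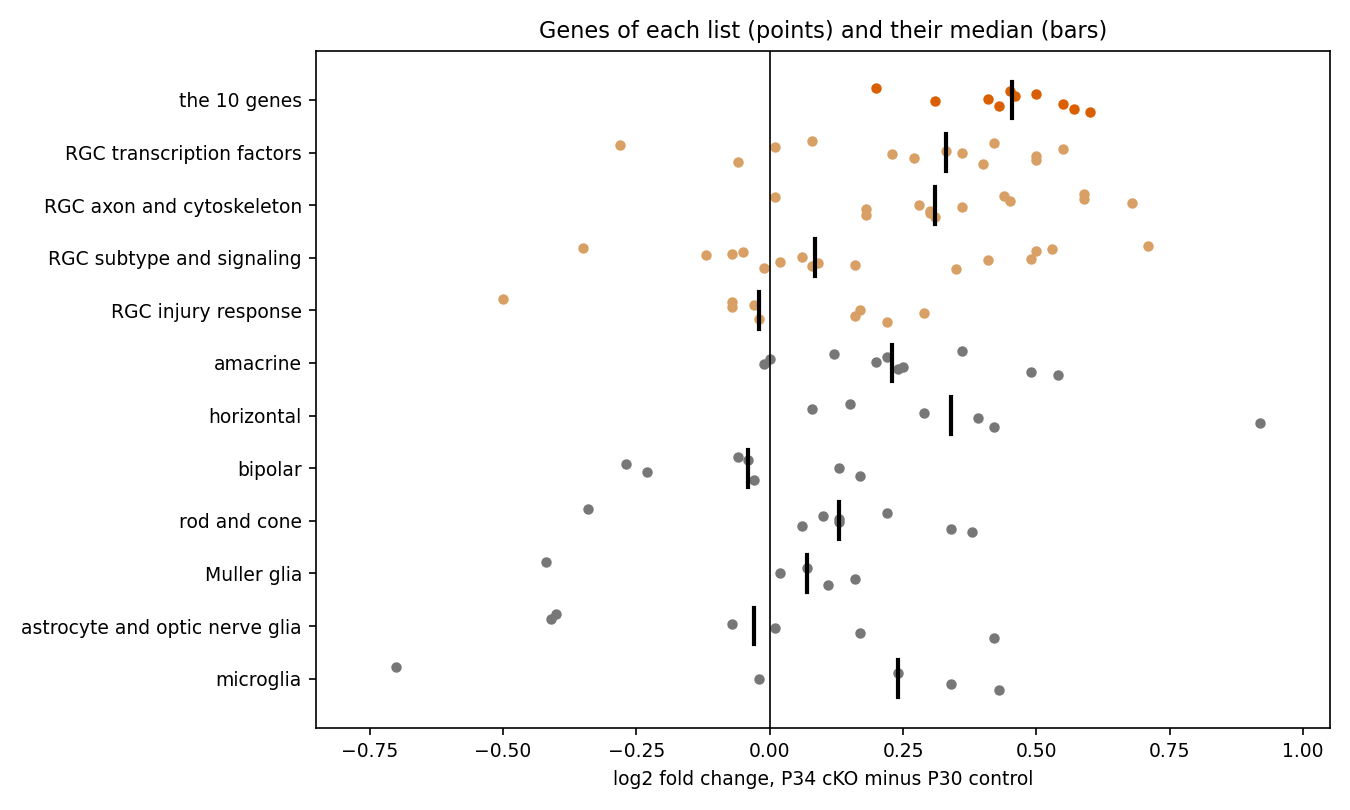
Log2 fold change at P34 against P30 (horizontal axis) of each gene in the list of 10, in 4 further lists of ganglion cell genes (light orange) and in 7 lists of other retinal cell classes (grey), with the median of each list as a black bar. The 10 genes lie between 0.20 and 0.60, and the injury response list has its median at −0.02.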

How the data were processed

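RNA of 12 mouse retinas was sequenced as stranded poly(A) libraries with single-end reads. The authors mapped the reads with STAR 2.5.3a to mm10, after base calling with bcl2fastq 2.17.1.14, and deposited raw counts per Ensembl gene from HTSeq 0.6.1p1 in union mode. The strand option of the counting is not given in the sources used here. In each file, 23.68 to 32.15% of the reads were not uniquely placed, 6.528 to 13.67% fell outside features and 0.6458 to 0.6959% were ambiguous, and these stayed out of library sizes.

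Symbols, positions and exonic lengths came from GENCODE M21 on GRCm38 (99.9% of 54146 genes named). Counts were scaled with TMM, filtered by expression (18628 genes kept) and fitted over all 12 mice with edgeR 4.0.16 in R 4.3.3 (glmQLFit and glmQLFTest, two-sided), with Benjamini-Hochberg adjustment over all genes tested. Calls required an adjusted p up to 0.05 together with a change of 0.5 or more, in either direction, on the log2 scale, as the study set them. Unless another setting is named, calls are those of this edgeR fit, and the study's own DESeq2 table lists further genes. RPKM is CPM per exonic kilobase, and log2 CPM used a prior count of 2. DESeq2 1.42.0 and the other alternatives are given at the end.

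Replicate libraries were checked for one deposited more than once, and none was found. The members and lists were chosen with earlier results of these data known. The rule for further names was, for each list, any called genes and the 2 with the highest RPKM, for ganglion cell lists also the 2 with the smallest p for any difference, and the 5 genes most like the 10. The lists of other cell classes are given here as counts, so the genes the rule picks from them are left unnamed.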

Additional observations from a re-analysis of the deposited data

Results flagged for a closer look

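For Opn4, all 3 P32 cKO mice were below all 3 P30 controls and all 3 P38 cKO mice were above them, although neither age passed against P30 (log2 difference −0.22, adjusted p = 0.698, and 0.46, adjusted p = 0.847). The difference of P38 from P32 was 0.68 in log2 (SE 0.16, edgeR unadjusted p = 0.00108, adjusted p = 0.114), with all P38 mice above all P32 mice, so the test of the difference itself did not pass after adjustment. The value ranged from 0.56 to 0.70 over 20 alternatives, and adjusted p from 0.00637 to 0.276. It passed with DESeq2 and without P32 mouse 6.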

How the results depend on the processing

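Of 1400 recomputed log2 fold changes of single genes, 1383 kept their side of the threshold without reversing, 15 passed the threshold and 2 reversed. A change of sign was counted as a reversal only where at least 1 of both values exceeded its standard error. The study's own DESeq2 table lists Pou4f1 as higher at P34. In the fits made here, the count of the 10 genes called stayed at 0 for P32, P34 and P38 against P30, for P38 against P34 and for all cKO ages against P30 under every change of scaling, filter, model or mouse. For P34 against P32 it was 2 with no filter on low counts and 5 with DESeq2, for P38 against P32 it was 1 with DESeq2, and for any difference among the 4 conditions it was 3 with DESeq2 (Slc17a6, Nefl and Opn4, beside 7.05% of all genes). The unadjusted p with the limit on the fold change gave 4 genes for P34 against P30 (0.854% of all genes), 5 for P34 against P32 (5.49%) and 4 for P38 against P32 (5.68%). Leaving out each mouse in turn gave 0 to 5 for P34 against P32 and 0 to 2 for P38 against P32, the higher values without P32 mouse 6, when 1416 and 1242 genes in all were called higher. The cause was not tested. Sncg reversed 2 times: at P38 against P30 it went from 0.21 to 0 with sex as a term, and at P38 against P32 from −0.04 to 0.19 without P32 mouse 4, with −0.17 as the lowest value on leaving out a mouse. Over all genes, the 123 lower calls at P34 against P30 ranged from 43 to 211 on leaving out a mouse and were 294 with no filter and 341 with DESeq2. The higher calls, 0 with all mice, were 0 to 2 on leaving out a mouse, 4 with no filter and 14 with DESeq2. For P34 against P32 the 45 lower calls became 425 lower and 231 higher with no filter and 834 lower and 584 higher with DESeq2, and for P38 against P32, with 0 calls, they became 82 and 119 and then 418 and 513. Without scaling of library totals the median over all genes was −0.11 for P34 against P32 and −0.14 for P38 against P32, and the medians of the 10 genes were 0.41 and 0.20. No paired analysis was possible because the groups share no replicate numbers, which run from 1 to 12. With 3 mice a group, a difference of 0.5 in log2 came with a standard error of 0.13 to 0.22 for these genes, and the summed level of lens genes ran from 238 to 37600 CPM among libraries.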
